A study of Mus musculus with 8 samples.

Results

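The genes described here had their lowest signal in the dorsomedial hypothalamic nucleus (DMH) among 4 hypothalamic nuclei of the mouse, the other 3 being the arcuate nucleus (Arc), the ventromedial hypothalamic nucleus (VMH), and the lateral hypothalamus (LH). Members were chosen by their own array signals: a probe was a member when it was well above background on all 6 Arc, VMH, and LH arrays and lower on both DMH arrays than on each of those 6. Of 55681 probes on the array, 22717 could be chosen in this way, and 684 of them (3.01%) were members. The members carried the names of 417 of the 11171 genes that could be chosen (3.73%), and 236 members had no gene symbol. Because the comparison of the DMH with the other nuclei chose the members, every value of that comparison is a description without a test.

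The nuclei were cut by laser microdissection from C57BL/6 females (C57BL/6J in the methods) at 3 months of age, with no genetic change or treatment in any group, and each nucleus has 2 arrays, named Arc1, Arc2, VMH1, VMH2, DMH1, DMH2, LH1, and LH2. The methods give 2 females as the source of the RNA, all 8 arrays lay on 1 slide with the replicates in separate rows, and the labels do not say which arrays share a mouse, so the p-values below measure the spread between these samples, which may be technical. Signals are processed intensities of 1 color, in arbitrary units, scaled so that the 75th percentile was the same on all arrays, and "signal" means this scaled value throughout. In dissected tissue, fewer cells of a type and less RNA per cell cannot be told apart.

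The DMH lies above the VMH and beside the LH, and it is known for its part in feeding, body temperature, the daily rhythm of activity and sleep, and the response to stress. Its neurons are a mixture of types that use GABA or glutamate and many peptides, and no single type is as prominent as the *Nr5a1* neurons of the VMH or the *Agrp* neurons of the Arc.

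The labels were checked with known markers. *Agrp*, a peptide of Arc neurons that promotes feeding, had a mean signal of 50100 in the Arc against at most 530.1 in the other nuclei, and *Nr5a1*, the nuclear receptor of VMH neurons, had 11930 in the VMH against at most 535.2. The genes *Prdm13*, *Grp*, *Npvf*, and *Skor1* had their highest signals on both DMH arrays. The study chose these genes as enriched in the DMH from the same arrays, so they are no check of the DMH labels. *Hcrt*, the orexin precursor of LH neurons, was at 106000 and 116700 on the LH arrays and also at 55940 and 51280 on the DMH arrays, against at most 684.4 on the Arc and VMH arrays. LH1 carried more *Npvf* (406.5 against 28.95 on LH2) and *Grp* (376 against 32.79) than LH2, and LH2 correlated more closely with DMH2 (Pearson r = 0.954 across probes) than with LH1 (0.938). The part of these signals in the member count was not tested. Without LH1, 1004 probes met the rule, and without LH2, 971.

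With the filter on dim probes, the DMH held the fewest lowest probes of the 4 nuclei. By the same rule, 2999 of 23128 probes were lowest in the Arc (13.0%), 2370 of 24117 in the LH (9.83%), and 1903 of 23113 in the VMH (8.23%), against 3.01% in the DMH. This order was also seen when a probe had to be well above background on all 8 arrays, where 12.2% were lowest in the Arc, 8.42% in the LH, 7.33% in the VMH, and 2.92% in the DMH. It was not the same in all settings: with median scaling the LH (1074) fell below the VMH (1456), as it did with a gap of at least 2-fold (61 and 120), and without the filter on dim probes the DMH (2495) was above the VMH (2416). In the opposite direction, 632 of 27356 probes well above background on both DMH arrays were higher there than on each other array (2.31%).

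**Figure D1:**
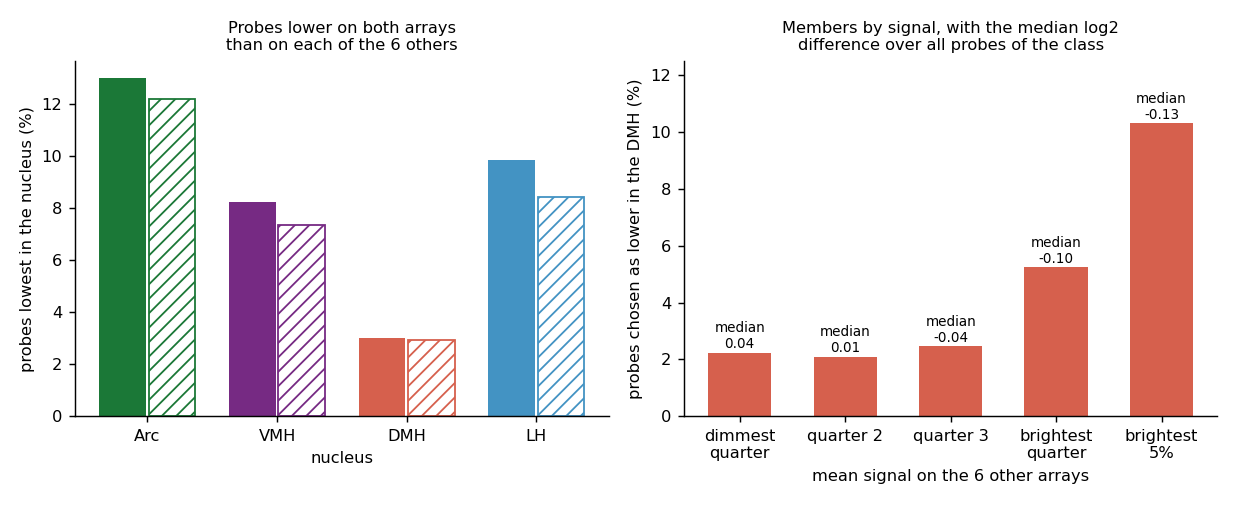
Left, the percentage of probes lowest on both arrays of each nucleus, among probes well above background on the 6 other arrays (filled bars) or on all 8 arrays (hatched bars). Right, the percentage of probes chosen as lower in the DMH by class of mean signal on the 6 other arrays, with the median log2 difference of the DMH over all probes of the class above each bar; the DMH has the shortest bars of the 4 nuclei on the left, which without any filter on dim probes was the VMH, and the share chosen is 2.10% to 2.47% in the 3 dimmer classes, 5.25% in the brightest class, and 10.3% in the brightest 5%.

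Most members were lower in the DMH by a small amount. The median log2 difference between the DMH mean and the mean of the other 3 nuclei was -0.41 over the members (quartiles -0.58 and -0.29), a 1.33-fold difference, while over all probes that could be chosen it was -0.03. The gap, the distance from the higher DMH array to the lowest of the 6 other arrays, had a median of 1.05-fold. It reached 1.1-fold for 191 members, 1.5-fold for 15, 2-fold for 5, and 3-fold for 1. The means differed by at least 2-fold for 59 members and by at least 4-fold for 17. Many of the 17 have unlike DMH arrays, as described below. Just inside the rule, the higher DMH array of *Mad2l2* had a signal of 1373 against 1374 on LH1, and just outside it, the higher DMH array of *Zfp90* had 593.0 against 592.9 on VMH2, so the edge of the list separates probes whose signals barely differ.

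*Acvr1c*, which encodes the type I receptor ALK7 for ligands of the activin and nodal branch of the TGF-beta family, had the largest gap. Its signal was 4423 and 2409 on the Arc arrays, 3153 and 4077 on the VMH arrays, 1260 and 909.7 on the LH arrays, and 107 and 250.2 on the DMH arrays. The LH signal lay between that of the DMH and those of the Arc and VMH, and only DMH2 of the DMH arrays was well above background. The DMH thus stood 3.64-fold below its nearest array and 14.2-fold below the mean of the other nuclei. The log2 difference of -3.83 behind the latter value was -3.21 without DMH1, -4.44 without DMH2, and -2.75 with normexp background correction, so its size is uncertain.

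*Deptor* encodes an inhibitor of both mTOR kinase complexes. Its signal was 2918 and 3593 in the Arc, 3876 and 4037 in the VMH, 2757 and 1561 in the LH, and 704.3 and 743.3 in the DMH. The DMH arrays lay close together, 2.10-fold below the nearest array (LH2) and 4.12-fold below the mean of the other nuclei. *Cd44*, a surface receptor for hyaluronan, was high in the Arc (1767 and 1617), lower in the VMH (294 and 243.4) and the LH (360.9 and 328.5), and lowest in the DMH (125 and 126). The gap of 1.93-fold belongs to 1 of the 2 *Cd44* probes, since the other probe differed by -0.14 on the log2 scale and was no member.

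*Six3*, a homeobox gene of the developing forebrain and eye, and *Six3os1*, the noncoding gene next to it on the opposite strand, were both members. *Six3os1* had a signal of 1751 and 2243 in the Arc, 1071 and 871.9 in the VMH, 371.2 and 395.3 in the LH, and 214 and 233 in the DMH. *Six3* had 1611 and 2655 in the Arc, 1028 and 1299 in the VMH, 345.7 and 443.5 in the LH, and 139 and 265 in the DMH, where 1 of the 2 DMH arrays was well above background. Both genes followed the order Arc, VMH, LH, DMH, and the log2 differences of the DMH from the mean of the other nuclei were -2.01 (*Six3os1*) and -2.35 (*Six3*), or -1.42 and -1.40 with normexp. The starts of the pair lie 2438 bases apart on GRCm38.p6.

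Among the other members with a large gap were *Htr1a*, *Gpat3*, and *Pcsk6*. *Htr1a*, the inhibitory serotonin 1A receptor, was at 823.3 and 716.7 in the DMH against 1313 to 2043 on the 6 other arrays, a gap of 1.59-fold. *Gpat3*, which starts the synthesis of glycerolipids, was at 168 and 162 in the DMH against 268 to 640.3. *Pcsk6*, a protease that cleaves growth factor precursors, was at 608.2 and 699.5 in the DMH against 1069 to 2214. In none of the 3 genes did a single nucleus stand far above the rest.

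*Dio2*, the deiodinase that makes the active thyroid hormone in tanycytes and astrocytes, showed an uneven pattern instead. Its signal was 1712 and 1130 in the Arc, 324 and 344.4 in the VMH, 712.5 and 518.2 in the LH, and 209 and 171 in the DMH. *Crym*, a thyroid hormone-binding protein, was at 1444 and 1408 in the Arc, 1020 and 883.3 in the VMH, 216 and 293 in the LH, and 150.3 and 176 in the DMH. The DMH was 3.47-fold (*Dio2*) and 4.29-fold (*Crym*) below the mean of the other nuclei, and the next nucleus was the VMH for *Dio2* and the LH for *Crym*.

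The list of large gaps also held *Kctd4*, *Cd164l2*, *F730043M19Rik*, and *Gm3448*. *Gm3448* was not well above background on either DMH array, and its Arc signal was at least 2.85-fold, its VMH signal at least 1.89-fold, and its LH signal at least 2.77-fold higher than in the DMH. For each bound, the DMH was set to the dimmest detected signal of the array, or to the probe's own signal where that was higher, and means were taken on the log2 scale. With normexp, the log2 difference of *Gm3448* moved from -1.95 to -0.74, so its size is uncertain. *Kctd4* was at 20.6 on DMH1 and 102 on DMH2 against 196 to 416.1 on the other arrays, so its 6.12-fold difference of means joins unlike DMH arrays. It was well above background on 1 DMH array. Its log2 difference of -2.61 was -1.46 without DMH1, -3.77 without DMH2, and -0.94 with normexp. In all, 660 members were well above background on both DMH arrays, 21 on 1, and 3 on neither.

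**Figure D2:**
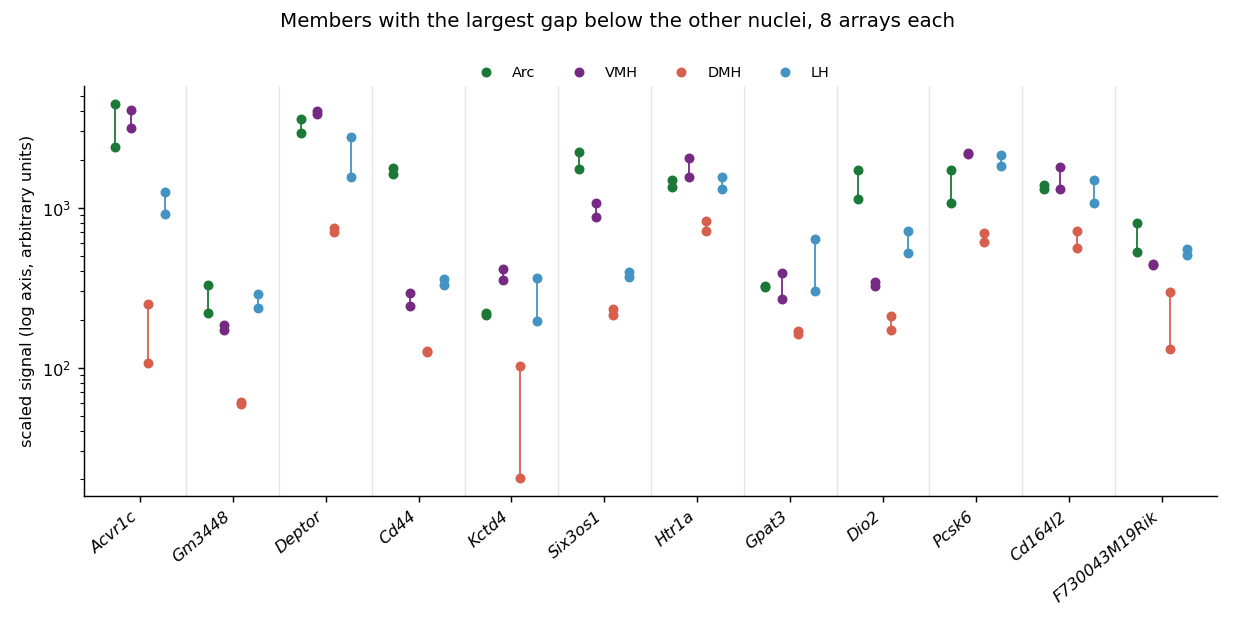
Scaled signal (log axis, arbitrary units) on each of the 8 arrays for the 12 named members with the largest gap, 1 point per array and a line joining the 2 arrays of a nucleus. The DMH points lie under all other points of each gene, by 3.64-fold for *Acvr1c* and by 1.48-fold for *F730043M19Rik*, and the DMH arrays of *Kctd4* lie 4.98-fold apart.

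Sequences upstream of 5 members are shown because *Acvr1c* and *Cd44* have large gaps, *Six3* and *Six3os1* are neighbours that varied alike over the nuclei, and *Rps26* stands for the ribosomal protein genes described below. They are the 250 bases before the most upstream RefSeq start of each gene on GRCm38.p6, at chr2:58357759-58358008 on the minus strand (*Acvr1c*), chr2:102901666-102901915 on the minus strand (*Cd44*), chr17:85620584-85620833 on the plus strand (*Six3*), chr17:85618397-85618646 on the minus strand (*Six3os1*), and chr10:128626507-128626756 on the minus strand (*Rps26*). Capitals mark matches on either strand to the TATA box TATAAA, the NF-Y motif CCAAT, the Sp1 motif GGGCGG, the ETS motif CCGGAAG, and the E-box CACGTG, none of which contains another:
Acvr1c: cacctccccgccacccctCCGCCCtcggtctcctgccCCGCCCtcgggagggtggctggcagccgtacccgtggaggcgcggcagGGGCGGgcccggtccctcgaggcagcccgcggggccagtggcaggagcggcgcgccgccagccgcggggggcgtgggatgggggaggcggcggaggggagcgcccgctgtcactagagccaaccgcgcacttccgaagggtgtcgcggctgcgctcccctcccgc
Cd44: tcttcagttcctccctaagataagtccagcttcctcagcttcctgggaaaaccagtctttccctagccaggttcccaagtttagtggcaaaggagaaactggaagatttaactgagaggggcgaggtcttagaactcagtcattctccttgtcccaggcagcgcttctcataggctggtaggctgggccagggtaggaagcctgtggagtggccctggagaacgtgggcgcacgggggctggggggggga
Six3: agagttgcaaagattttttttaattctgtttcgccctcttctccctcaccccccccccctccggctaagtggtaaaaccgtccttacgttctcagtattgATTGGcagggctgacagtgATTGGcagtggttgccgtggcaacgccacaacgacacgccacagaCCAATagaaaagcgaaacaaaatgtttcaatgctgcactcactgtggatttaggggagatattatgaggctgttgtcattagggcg
Six3os1: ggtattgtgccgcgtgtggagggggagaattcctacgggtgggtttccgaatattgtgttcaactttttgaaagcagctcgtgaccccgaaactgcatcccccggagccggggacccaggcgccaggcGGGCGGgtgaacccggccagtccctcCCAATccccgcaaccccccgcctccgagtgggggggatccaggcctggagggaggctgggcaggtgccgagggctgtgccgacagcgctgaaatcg
Rps26: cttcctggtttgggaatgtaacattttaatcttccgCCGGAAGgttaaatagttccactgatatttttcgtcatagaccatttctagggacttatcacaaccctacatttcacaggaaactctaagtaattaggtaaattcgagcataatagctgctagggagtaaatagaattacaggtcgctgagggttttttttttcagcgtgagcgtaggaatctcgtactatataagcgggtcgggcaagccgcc

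The *Acvr1c* sequence was rich in G and C (79.6%) with 3 matches to GGGCGG, *Six3* held 3 matches to CCAAT, *Six3os1* held 1 match to each of these motifs, and *Cd44* held no match. Promoters were found for 349 of the 417 member genes. CCAAT occurred in 30.4% of them against 36.3% of the genes that could be chosen and 34.5% of all promoters, GGGCGG in 55.9% against 59.3% and 33.0%, CCGGAAG in 13.5% against 13.4% and 7.07%, TATAAA in 7.74% against 6.56% and 13.0%, and CACGTG in 9.17% against 8.86% and 6.04%. The median share of G and C was 59.2% in the members' promoters and 60.0% in those of the genes that could be chosen, and none of these differences was tested. A match is a description of the letters and not a binding site.

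Most of the largest differences of means among named members, led by *Capns1* (33.5-fold), rest on 1 DMH array. The arrays of the DMH differed over 4-fold for 10 members (1.46%) against 0.348% of all probes that could be chosen. For *Capns1*, the small subunit of calpain, 1 probe read 13960 on DMH1 and 18.9 on DMH2 against 15990 to 18570 on the other arrays, while the other probe read 6488 and 7657 against 8489 to 9152. For the histone gene *H4c9*, 1 probe read 74.9 on DMH1 and 14010 on DMH2 against 15210 to 22540, and its other probe differed by -0.00 on the log2 scale. The lowest signals of all on these arrays were 18.5 on DMH1 and 18.7 on DMH2, and each of these probes was read from 1 spot per array.

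The same held for *Cacng8*, an auxiliary subunit of AMPA receptors (19.3 and 2132), the coatomer gene *Copb2* (2537 and 18.9), the zinc finger gene *Zfp651* (19.2 and 867.7), and *Mroh1* (19.4 and 767.9), in each case DMH1 before DMH2. The splicing gene *Luc7l2* read 193600 and 5442, and its other probe differed by -0.06 on the log2 scale. The remaining genes of this kind were *Ahnak* (19.3 and 177), *Sh3bp1* (174 and 38.9), and *Kctd4*. For all of these except *Kctd4*, the brighter DMH array lay at most 1.15-fold below the lowest other array, so the large difference of means rests on 1 reading. Without the 10 members, the median difference over the remaining 674 was -0.40, and the largest ratio of means was that of *Acvr1c*.

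Genes with several probes show how far a call holds within a gene. Of 2715 genes with at least 2 probes that could be chosen, 173 had a member, and in 15 every probe was a member. Over all genes, 417 of 11171 (3.73%) had a member, and a gene with more probes has more ways to hold one. The other 196 probes of the member genes were below the mean of the other nuclei in 163 cases (83.2%), against 55.0% of all probes that could be chosen, with a median log2 difference of -0.18 against -0.03. These probes read the same RNA on the same arrays, and the shares are a description.

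*Cdh4*, the R-cadherin of neuronal adhesion, had 3 probes and all were members. The probe with the largest gap read 726.3 and 1124 in the Arc, 4934 and 4918 in the VMH, 917.1 and 1019 in the LH, and 439 and 506.5 in the DMH. The VMH stood far above the others, and the DMH was 3.45-fold, 3.24-fold, and 3.06-fold below the mean of the other nuclei on the 3 probes. *Arhgef28* had 2 member probes with differences of 1.70-fold and 1.87-fold, *Fgf18*, a secreted growth factor, 2.16-fold and 2.04-fold, *Cd164l2* 2.19-fold and 2.51-fold (the latter with 1 DMH array well above background), and *Pemt*, which methylates phosphatidylethanolamine, 1.33-fold and 1.41-fold. *Capns1*, with the unlike arrays given above, was also one of the 15.

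The ribosomal protein genes were the list with the most members. Of 77 genes that could be chosen, 20 were members (26.0%), against 3.73% of all genes, and of their 156 probes 26 were members (16.7%), against 3.01% of all probes, and 75 of 77 were below the mean of the other nuclei, as were 57.9% of all genes. The differences were small, with a median of -0.24 on the log2 scale against -0.04 over all genes, and the ratios of the 26 member probes lay between 1.13-fold and 1.75-fold. *Rps26* read 29710 and 30450 in the Arc, 23610 and 25100 in the VMH, 22830 and 28930 in the LH, and 18380 and 19190 in the DMH. The count depended on the scaling: with quantile normalization the median was -0.13 and 2 genes were members, and without scaling no gene was a member. Leaving out the scaling raises the DMH difference of every probe by the same amount, from a median of -0.04 to 0.30 over all genes, so the list's unscaled median of 0.10 still lay below that of all genes. Ribosomal protein genes have many processed copies in the genome, so these probes may also read transcripts of related loci.

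*Rps24* (1.75-fold on 1 of 3 probes, the others at 1.18-fold and 1.25-fold), *Rps29* (1.26-fold), and *Rplp2* (1.25-fold) were the next ribosomal genes by gap, and without scaling the log2 differences of the last 2 were 0.00 and 0.02, against 0.30 over all genes. The subunits of the respiratory chain had 6 members of 76 (7.89%), against 3.73% of all genes, with 71 of 76 below the mean of the other nuclei, and the count was 3 with quantile normalization, 3 with median scaling, 9 with normexp, and 0 without scaling. Their median was -0.17 with the 75th percentile, -0.05 with quantile normalization, and 0.17 without scaling (0.30 over all genes). Their leading members were *Ndufa3* (1.22-fold), *Atp5l* (1.21-fold, with 2 of 5 probes members), *Uqcr11* (1.20-fold), and *Cox8a* (1.13-fold on 1 of 2 probes, with -0.04 on the log2 scale on the other), whose unscaled log2 differences of 0.06 to 0.17 were above 0 but under that of all genes. *Gapdh*, the glycolytic gene that the study used as its reference in RT-PCR, had 5 members among 7 probes, against 3.01% of all probes. It is named here after its values were seen. One of its member probes read 44340 and 31940 in the DMH against 46000 to 61210 elsewhere, and log2 differences over the 7 probes ran from -0.54 to -0.25.

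The share of members was highest among the brightest probes. The median signal on the other arrays was 3150 for the members and 1510 for all probes that could be chosen. In 4 equal classes of signal from dim to bright, 2.24%, 2.10%, 2.47%, and 5.25% of the probes were members, and of the brightest 5%, 10.3%. The median log2 difference over all probes of these classes was 0.04, 0.01, -0.04, and -0.10, and -0.13 in the brightest 5%. The part of this drift with signal in the counts of bright lists was not tested. Probes that the array names by a chromosome position made up 9.5% of the members and 19.7% of the probes that could be chosen.

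Among markers of glia and vessels, microglia and macrophages had 2 members of 14 (14.3%) and ependymal cells and tanycytes 2 of 9 (22.2%), against 3.73% of all genes, while the other lists had none. With quantile normalization 1 microglia gene was a member and without scaling none, and with normexp 1 oligodendrocyte gene was. Of the microglia and macrophage genes, *Aif1*, the marker also called IBA1, and *Tyrobp*, an adaptor of immune receptors, were members. *Aif1* read 1335 and 1492 in the DMH against 1660 to 2918 elsewhere, and *Tyrobp* 4019 and 3733 against 4041 to 6804. The list's median was -0.28, with 13 of 14 below the mean of the other nuclei (57.9% of all genes), and 0.06 without scaling, against -0.04 and 0.30 over all genes. Oligodendrocyte genes had a median of -0.36 (-0.03 without scaling) with all 14 below the mean of the other nuclei and no member, astrocyte genes -0.01 with 0 of 20, endothelial genes 0.02 with 0 of 15, and mural and leptomeningeal genes -0.06 with 0 of 9. With 3.73% of all genes chosen, a count of 0 in lists this short is no result about them. In the list of ependymal cells and tanycytes, *Dio2* and *Crym* were the members of 9 genes, and 7 of the 9 were below the mean of the other nuclei. *Hdc* (2.22 on the log2 scale) and *Rarres2* (0.33) were above it. The median of this list was -0.36, and -0.02 without scaling.

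The lists of neuronal identity genes were also too short for a count of 0 to be read against the 3.73% of all genes. None of the 18 pan-neuronal genes was a member (median -0.20, and 0.13 without scaling), and none of the 10 GABA and glutamate identity genes (0.21) or of the 11 genes of monoamine neurons (0.19). Of 28 neuropeptide and processing genes, *Pcsk1n*, which encodes the inhibitor proSAAS of the peptide convertase, was the 1 member (3.57%), at 39960 and 39020 in the DMH against 50340 to 61990. Arc marker genes had the lowest median of the lists (-1.86) and no member among 10, and *Agrp*, for one, was no higher in the VMH (402.1) and LH (488.8) than in the DMH (530.1). The VMH list had 1 member of 10, *Krt18*, the DMH list none of 4 (1.23), and the LH list none of 8 (0.08). No member came from the 26 nuclear receptors (-0.03), the 30 imprinted genes (0.09), the 12 immediate early genes (0.40), or the 9 oligodendrocyte precursor genes (-0.21, and 0.12 without scaling).

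Lists of receptors, channels, and adhesion genes had 1 to 3 members each, beside the 3.73% of all genes. *Mc3r*, the melanocortin receptor that modulates energy balance, was the 1 member of 19 genes of leptin, insulin, ghrelin, and melanocortin signalling. It read 2906 and 2410 in the Arc, 2352 and 2568 in the VMH, 968 and 738.9 in the LH, and 590.1 and 646.9 in the DMH, so the DMH and LH lay close together and well under the Arc and VMH. *Grin3b*, an NMDA receptor subunit, was the 1 member of 40 GABA and glutamate receptor genes, at 237 and 236 in the DMH against 286 to 514.3.

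Among 55 voltage-gated ion channels, *Kcnd3*, of the A-type potassium current, and *Kcnj5*, an inward rectifier gated by G proteins, were members, with the DMH 1.68-fold and 1.75-fold below the mean of the other nuclei, and 1.32-fold on a *Kcnd3* probe that was no member. The 29 cadherins and protocadherins held *Cdh4*, *Pcdh7* (1.91-fold and 1.53-fold on 2 of its 3 probes), and *Pcdh9* (1.42-fold, and 1.22-fold on a probe that was no member). The 49 axon guidance genes held the semaphorin receptor *Plxna2* (1.61-fold) and the ephrin *Efna2* (1.66-fold), though this list had 6 members with median scaling and 7 with normexp, and the 35 synaptic vesicle genes held *Sv2c* (1.96-fold and 1.58-fold) and *Cplx2* (1.33-fold on 1 of 4 probes, and 1.05-fold to 1.20-fold on the others). *Six3* came from the list of 29 homeobox and other developmental factors. *Necab2*, a neuronal calcium-binding protein (1 of 21 in its list), and *Csnk1d*, a kinase of the circadian clock (1 of 16), were members by small differences of 1.25-fold and 1.14-fold, and their lists had no member with quantile normalization, median scaling, normexp, or no scaling, where the log2 differences turned to 0.01 and 0.15 against 0.30 over all genes. For these lists the shares of members, from 2.50% to 10.3%, are set by 1 to 3 genes each.

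**Figure D3:**
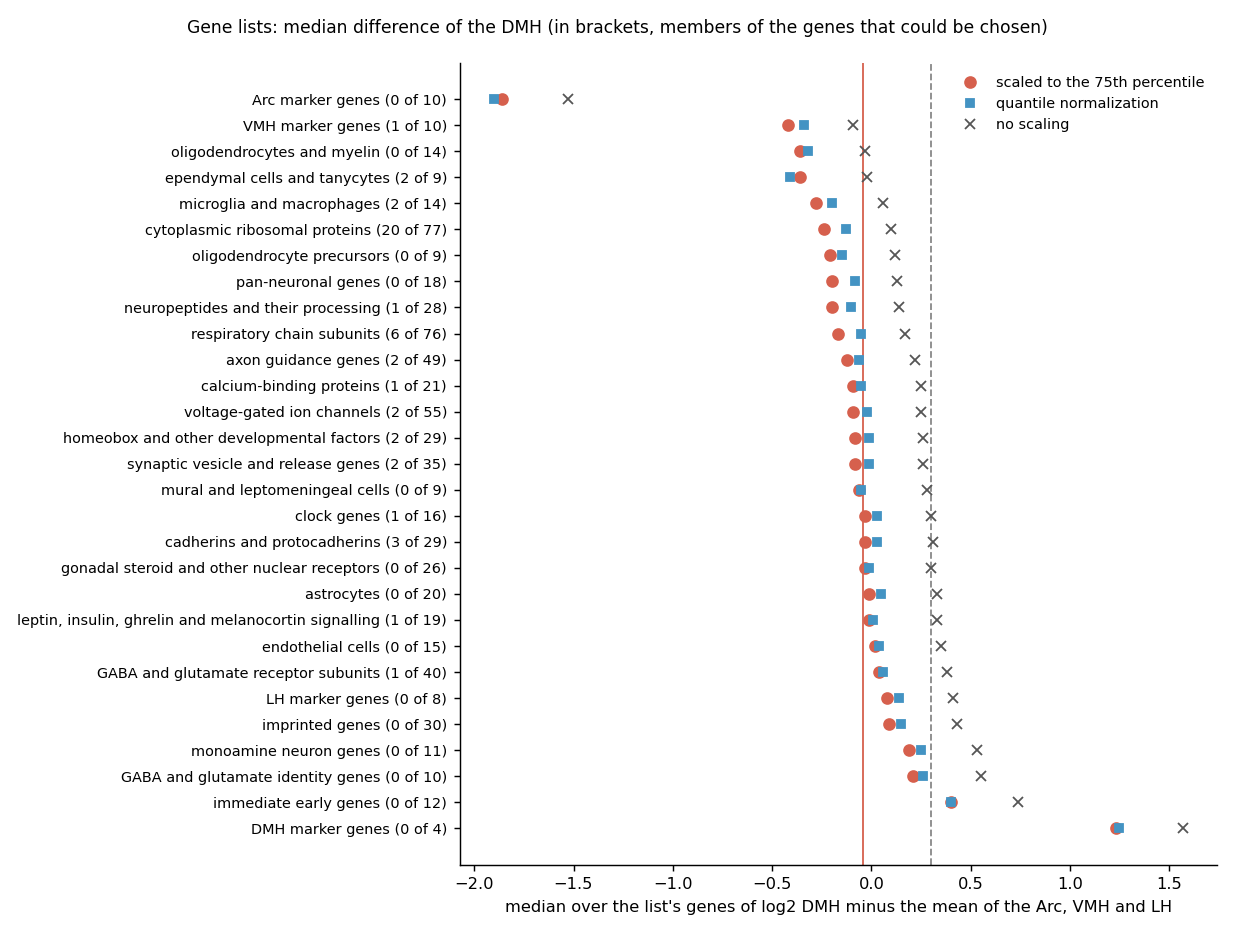
Median over the genes of each of the 29 lists of the log2 difference between the DMH and the mean of the Arc, VMH, and LH, with 3 scalings of the arrays; brackets give members and genes that could be chosen, and vertical lines mark the median over all genes with the 75th percentile (-0.04, solid) and without scaling (0.30, dashed). Ribosomal proteins have the most members (20 of 77), and without scaling the medians of this list (0.10) and of most others lie above 0, with that of all genes at 0.30.

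The comparisons among the Arc, VMH, and LH were not what the rule compared, and they were tested with limma over 28765 probes. The rule does use these 6 arrays, since a probe low in one of the nuclei is unlikely to lie above both DMH arrays there, and the variance was shared with the DMH arrays, so the counts below are read with that limit. Of the members, 42 of 684 (6.14%) passed the adjusted threshold in at least 1 of the 3 pairs, against 11.7% of the probes that could be chosen. Both counts are over probes well above background on all 6 arrays. Between the Arc and the VMH, where 5.94% of all probes tested differed, 8 members were higher in the Arc (1.17% against 1.74%) and 16 in the VMH (2.34% against 3.32%). Between the Arc and the LH, where 9.34% differed, 14 members were higher in the Arc (2.05% against 2.24%) and 9 in the LH (1.32% against 5.78%). Between the VMH and the LH, where 5.31% differed, 20 were higher in the VMH (2.92% against 1.57%) and 7 in the LH (1.02% against 2.54%). The differences between these shares were not tested. For Arc against LH, 3.36% of the members and 8.02% of the background passed, and the members' share was the lower one in every setting run. For the remaining pairs the order changed with the setting. For Arc against VMH, 3.51% of the members and 5.06% of the background passed, but 1.17% and 0.885% without Arc1, 1.46% and 0.889% without Arc2, 1.32% and 0.92% without VMH1, and 1.32% and 1.15% without VMH2. For VMH against LH the shares were 3.95% and 4.12%, but 2.92% and 2.19% in a fit of the 6 arrays alone. With the Tukey-Kramer test in place of limma, *Lbhd2* between Arc and VMH and between VMH and LH was the only member that passed.

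*Krt18*, a keratin of intermediate filaments, read 2596 and 3305 in the VMH against 169 to 303 in the Arc and LH and 140.2 and 139 in the DMH. *Krt18* was lower in the Arc than in the VMH by a log2 difference of -3.96 ± 0.25 (SE, limma adjusted p = 0.000703) and higher in the VMH than in the LH by 3.51 ± 0.25 (limma adjusted p = 0.00133). *Lama1*, a laminin chain of the basement membrane, read 1742 and 1630 in the VMH against 222 to 329.9 in the Arc and LH and 100.4 and 157 in the DMH. *Lama1* differed by -2.80 ± 0.27 between Arc and VMH (limma adjusted p = 0.00287) and by 2.50 ± 0.27 between VMH and LH (limma adjusted p = 0.00541), and the latter missed the threshold without VMH1 (limma adjusted p = 0.0506).

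*Lbhd2* read 22300 and 23530 in the VMH against 2097 to 3320 in the Arc and LH and 1729 and 1856 in the DMH. It differed by -3.43 ± 0.18 between Arc and VMH (limma adjusted p = 0.000385) and by 2.81 ± 0.18 between VMH and LH (limma adjusted p = 0.000924). All 3 *Cdh4* probes were higher in the VMH than in the LH, by 2.35 to 2.38 (limma adjusted p from 0.00546 to 0.0239), and the Arc was lower than the VMH, with log2 differences of -2.45 to -2.15. The probe with the weakest call against the LH missed the threshold without VMH1 (limma adjusted p = 0.0572), VMH2 (0.111), or LH1 (0.052). These genes were lowest in the DMH by the rule, but most of the spread over the nuclei lay between the VMH and the rest.

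Members high in the Arc were led by *Prune2*, which read 3517 and 4054 in the Arc, 162 and 190 in the VMH, 659.7 and 414.5 in the LH, and 129 and 157 in the DMH. It differed by 4.43 ± 0.28 between Arc and VMH (limma adjusted p = 0.000626) and by 2.85 ± 0.28 between Arc and LH (limma adjusted p = 0.0025). The VMH and DMH of *Prune2* were 1.04-fold apart at their nearest arrays. *Crym* (2.50 ± 0.23, limma adjusted p = 0.00217), *Six3* (2.40 ± 0.38, limma adjusted p = 0.0127), and *Six3os1* (2.37 ± 0.22, limma adjusted p = 0.00226) were also higher in the Arc than in the LH, although *Six3* missed the threshold without Arc2 (limma adjusted p = 0.0804). The member probe of *Cd44* was higher in the Arc than in both (2.66 against the VMH and 2.30 against the LH, limma adjusted p = 0.00116 and 0.00192), and so was *Dio2* (2.06 and 1.19, limma adjusted p = 0.00909 and 0.0447). The other *Cd44* probe was brighter and read 77760 and 42960 in the Arc, 66950 and 42890 in the VMH, and 42530 and 38350 in the LH.

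*Mc3r* was higher in the Arc (1.65 ± 0.22, limma adjusted p = 0.00701) and in the VMH (1.54 ± 0.22, limma adjusted p = 0.0136) than in the LH. *Acvr1c* had a difference of 1.61 ± 0.47 between Arc and LH (limma adjusted p = 0.0797) and of 1.74 ± 0.47 between VMH and LH (limma adjusted p = 0.088), and *Deptor*, *Htr1a*, *Gpat3*, and *Pcsk6* passed the threshold in none of the 3 pairs. Their lowest adjusted p over the pairs was 0.134 (*Deptor*), 0.453 (*Htr1a*), 0.495 (*Gpat3*), and 0.208 (*Pcsk6*), which with 2 arrays per nucleus does not show equal levels.

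**Figure D4:**
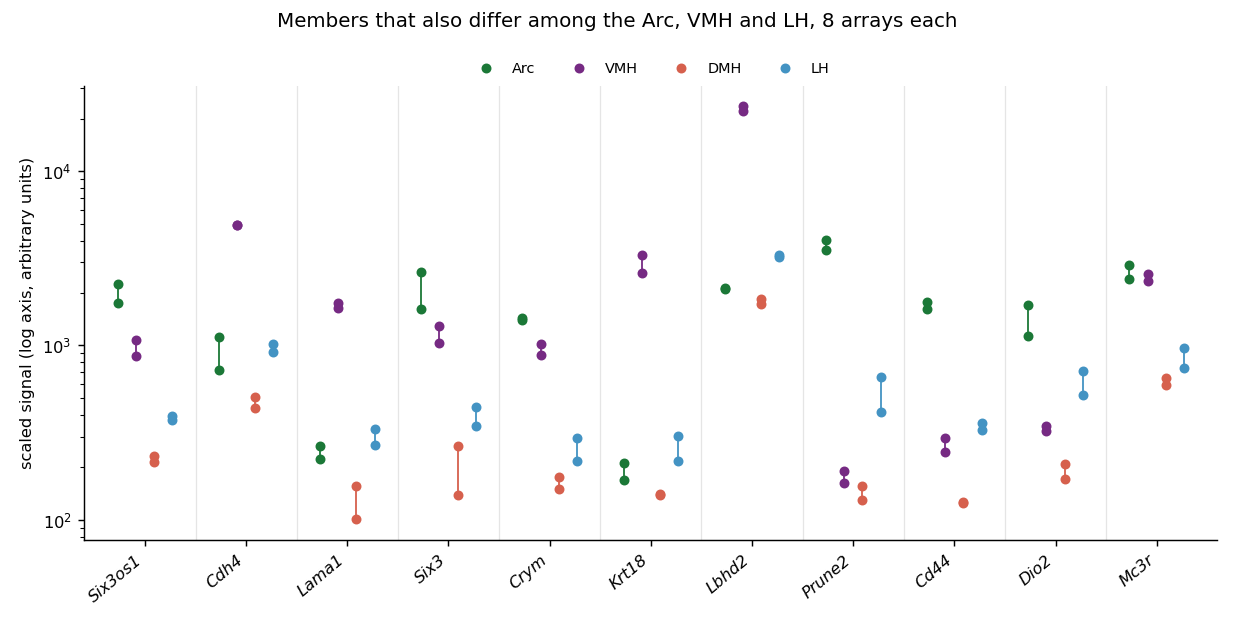
Scaled signal (log axis, arbitrary units) on each of the 8 arrays for 11 members that differed between at least 1 pair of the Arc, VMH, and LH, 1 point per array and a line joining the 2 arrays of a nucleus. *Cdh4*, *Lama1*, *Krt18*, and *Lbhd2* are highest in the VMH and *Prune2*, *Cd44* (the member probe), *Dio2*, *Crym*, *Six3*, and *Six3os1* in the Arc, *Mc3r* overlaps in the Arc and VMH, and the DMH points are lowest in every gene.

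The nucleus nearest to the DMH was most often the Arc. By mean log2 signal the next lowest nucleus was the Arc for 45.2% of the members (35.2% of all probes that could be chosen), the VMH for 29.1% (30.1%), and the LH for 25.7% (34.7%). The highest nucleus was the LH for 45.5% (35.7%), the VMH for 30.0% (30.0%), and the Arc for 24.6% (34.2%). Of the 12 named genes with the largest gap, the Arc, the VMH, and the LH were each next lowest for 4.

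The replicates were also kept apart. Of 22717 probes, 4180 (18.4%) were lowest in DMH1 among the replicate 1 arrays, and 1258 of these (30.1%) were also lowest in DMH2 among the replicate 2 arrays, where 19.7% of all probes were. In the reverse order, the same 1258 probes made up 28.1% of those lowest in DMH2, where 18.4% of all probes were lowest in DMH1. The filter used the other nuclei of both replicates, so the shares are a description. Without the filter on dim probes the first share turned below its background, at 16.1% against 17.2% of all probes. The probes lowest in DMH1 had a median log2 difference of -0.35 in replicate 1, which chose them, and of -0.09 in replicate 2, where it was -0.01 over all probes. The probes lowest in DMH2 had -0.36 in replicate 2 and -0.10 in replicate 1, where it was -0.05 over all probes.

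Which probes were members depended on the scaling between arrays. The 75th percentile of the unscaled signal was 1150.3 on DMH1 and 1195.7 on DMH2 against 815 to 1238.8 on the other arrays, and without scaling the median difference over all genes moved from -0.04 to 0.30 on the log2 scale. Without scaling 31 probes met the rule, all of them members. Quantile normalization kept 404 of the 684 members, median scaling 406, and normexp background correction 476. In all 7 other treatments of the signal, 30 probes of 24 named genes remained members. Among them were *Acvr1c*, *Deptor*, *Kctd4*, *Six3*, *Six3os1*, *Htr1a*, *Gpat3*, *Dio2*, *Pcsk6*, *Crym*, *Lama1*, and 1 probe each of *Cd44*, *Arhgef28*, and *Pcdh7*. As leaving out the scaling raises every DMH difference alike, this set mostly ranks the members by gap. With normexp, the log2 difference moved from -2.10 to -1.14 for *Cd44*, from -2.10 to -1.43 for *Crym*, and from -1.12 to -0.59 for *Gpat3*. It is given above for *Acvr1c*, *Six3*, *Six3os1*, *Gm3448*, and *Kctd4*.

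**Figure D5:**
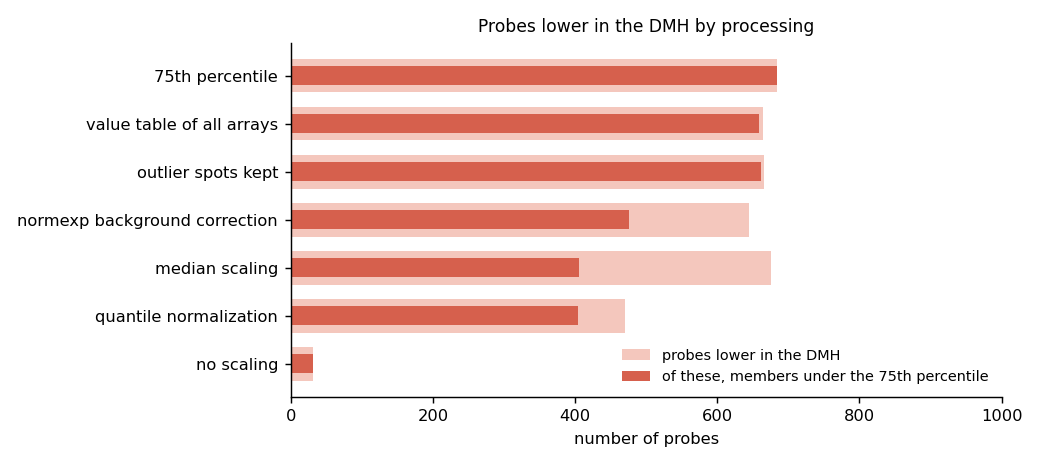
Number of probes lower on both DMH arrays than on each of the 6 others (pale bars) with the 75th percentile and 6 other treatments of the signal, and how many of them were members with the 75th percentile (dark bars). The count stays between 470 and 684 except without scaling, where it is 31, and median scaling shares 406 members.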

How the data were processed

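RNA from 4 laser microdissected nuclei was amplified (WTA2), labelled (Kreatech ULS), and hybridized to 8 Agilent arrays of 1 color, read in the red channel. The authors deposited each array's processed signal, an intensity from which Feature Extraction had subtracted the background, with no normalization between arrays. They also deposited calls of spots well above background or outlying, and a value table of the same intensity rounded. File headers name version 10.7.3.1 of the software and the submitters' processing notes 11.5.1.1. Here outlier spots and control spots were left out, replicate spots were combined by their mean, and arrays were brought to a common 75th percentile. Probes were named through RefSeq accessions (GRCm38.p6 annotation): 26762 had a symbol, 94.3% of the 28390 probes with such an accession. The number of arrays (n = 2 per nucleus) limits the precision.

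Contrasts among the Arc, VMH, and LH were fitted on log2 signal with limma 3.58.1 (R 4.3.3) over 28765 probes, with all 4 nuclei sharing 1 variance estimate (4 residual and 3.02 prior degrees of freedom), Benjamini-Hochberg adjustment over all probes, and a threshold of 0.05. Scripts used python 3.11, numpy 2.4.6, pandas 2.3.3, and matplotlib 3.10.9, and were tested on simulated data. The members, the 29 gene lists, and the tests were chosen with earlier results of these data known. Named were the 12 genes with the largest gap, the 8 next by difference of means, up to 4 members per list by gap, the 6 leading genes with every probe a member, the 3 probes on each side of the edge, the 4 members with the largest difference per tested pair, and 7 label markers. Alternatives were other scalings and background corrections, the value table, other filters and gaps, leaving out each array, each replicate alone, a replicate block, and the Tukey-Kramer test. One member of a list is not reported here.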

Additional observations from a re-analysis of the deposited data

How the results depend on the processing

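Against 684 members, 31 probes met the rule without scaling, 2495 without the filter on dim probes, 15 with a gap of at least 1.5-fold, 5 with at least 2-fold, 4528 with the replicate 1 arrays alone, and 4873 with the replicate 2 arrays alone. Leaving out 1 array removes a condition of the rule, so the count can only rise. It was then 805 to 2432, with 1148 without Arc1, 2432 without DMH1, and 2427 without DMH2. Counted as genes the members were 417, or 259 where every probe had to be a member. The median log2 difference was -0.07 without scaling and -0.41 to -0.38 with 1 array left out. Members that differed between Arc and VMH numbered 24, against 15 without the filter, 1 by Tukey-Kramer, and 8 to 31 with 1 array left out (8 without Arc1, 10 without Arc2, 9 without VMH1, 9 without VMH2). Between Arc and LH there were 23, against 14 without scaling, 44 with median scaling, 0 by Tukey-Kramer (84 at an unadjusted p under 0.05 by limma), and 9 to 30 with 1 array left out (9 without Arc1, 10 without Arc2). Between VMH and LH there were 27, against 17 without scaling, 1 by Tukey-Kramer, and 2 to 32 with 1 array left out (2 without VMH1, 7 without VMH2). Of named genes, the *Six3* difference between Arc and LH missed the threshold without Arc2 (limma adjusted p = 0.0804) and that of *Lama1* between VMH and LH without VMH1 (limma adjusted p = 0.0506), and that of 1 *Cdh4* probe between VMH and LH without VMH1 (0.0572), VMH2 (0.111), or LH1 (0.052) by limma. With the replicate number as a block the counts were 20, 25, and 25. Deviations of same-numbered arrays correlated from -0.026 to 0.258, and the numbers were not taken to pair the arrays. Of probes lowest in DMH1, the share also lowest in DMH2 (30.1%) was 12.3% without scaling, against 3.53% of all probes, and 16.1% without the filter, against 17.2% of all probes. Without scaling, which adds the same amount to every probe (the median over all genes was then 0.30), the difference was 0.06 for *Atp5l*, 0.17 for *Cox8a*, 0.15 for *Csnk1d*, 0.06 for *Ndufa3*, 0.01 for *Necab2*, 0.02 for *Rplp2*, 0.00 for *Rps29*, and 0.08 for *Uqcr11*, all under that of all genes. Leaving out the 10 members with unlike DMH arrays, chosen after seeing the data, left 674 members, a median of -0.40, and counts of 24, 23, and 27. The cause of these changes was not tested. Signal over background limits the 24 members that were dim on at least 1 DMH array.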
